A study of Mus musculus with 4 samples.

Results

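The clock output and REV-ERB genes are 10 genes that stand downstream of the circadian clock or feed back on it. They were chosen by name, as the rows of the count files whose Ensembl identifiers map to Dbp, Tef, Hlf, Nfil3, Nr1d1, Nr1d2, Ciart, Bhlhe40, Bhlhe41 and Usp2, and make up 10 of the 55401 gene rows. All 10 were counted in all 4 libraries and passed the filter on low counts in both tissues. The libraries came from the kidney and the heart of C57BL/6 mice after cecal ligation puncture (CLP), a surgical model of sepsis, with melatonin (CLP + MLT) or without it (CLP). For the kidney, the study describes male mice of 8 weeks that drank melatonin at 25 μg/ml for 14 days before the surgery, and tissue taken 24 h after it. For the heart no dose or time is given in the sources used here. The mice were kept in 12-h light and dark phases, and the hour at which each tissue was taken is not given. The titles of both melatonin libraries carry MLT4, as does the kidney treatment label, and the digit is not explained. Each group was 1 library, and whether it holds RNA of 1 mouse or of more is not stated. No difference below can therefore be set against the spread between mice, and every interval covers counting error only. A melatonin effect, a different hour of collection and a difference between mice cannot be told apart in this design.

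The clock of mouse cells is a loop in which CLOCK and BMAL1, the product of Arntl, bind DNA elements called E-boxes and switch on Per, Cry, Nr1d, Dbp and Ciart genes. The REV-ERB proteins, encoded by Nr1d1 and Nr1d2, bind a second element, the RORE, and repress Arntl, Npas2 and Nfil3. DBP, TEF and HLF, the PAR bZIP factors, activate genes through yet another element, the D-box, which NFIL3 occupies as a repressor. In mouse organs the Arntl and Npas2 mRNAs are known to peak in opposite phase to those of Dbp and Per3, while Nr1d1 peaks somewhat ahead of Dbp. Kidney and heart both run such clocks.

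Promoter windows of Ciart, Nfil3, Nr1d1, Nr1d2 and Tef are shown, each of which holds a match to an element near the start. Those of Dbp, Hlf and Usp2, which hold none of the motifs searched, are not shown. The windows come from RefSeq on GRCm38.p6, run from 250 bases before the annotated start to 50 after it, and give 10 windows for 9 of the 10 genes, Tef having 2 and Bhlhe40 none. They are written 5′ to 3′ on the strand of the gene. Capitals mark the E-box CACGTG, its variant CACGTT, and AGGTCA, the core of the RORE, each searched on both strands, where a match on the other strand reads AACGTG or TGACCT. Ciart, at chr3:95882179-95882478 on the minus strand, was the gene with the highest ratio in kidney.
Ciart: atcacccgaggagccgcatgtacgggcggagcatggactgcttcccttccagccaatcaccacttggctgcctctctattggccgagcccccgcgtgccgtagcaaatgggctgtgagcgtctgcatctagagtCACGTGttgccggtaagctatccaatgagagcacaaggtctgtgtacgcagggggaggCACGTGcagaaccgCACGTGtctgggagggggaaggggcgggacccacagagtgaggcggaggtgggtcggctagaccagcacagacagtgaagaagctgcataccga
Nfil3, at chr13:52980990-52981289 on the minus strand, was at least 1.5-fold lower in both tissues.
Nfil3: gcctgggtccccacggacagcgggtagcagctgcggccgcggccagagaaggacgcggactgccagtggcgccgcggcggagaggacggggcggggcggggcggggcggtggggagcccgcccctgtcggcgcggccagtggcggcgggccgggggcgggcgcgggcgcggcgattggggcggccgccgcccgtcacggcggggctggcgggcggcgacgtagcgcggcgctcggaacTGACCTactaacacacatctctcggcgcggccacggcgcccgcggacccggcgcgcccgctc
Nr1d1, at chr11:98775328-98775627 on the minus strand, and Nr1d2, at chr14:18239057-18239356 on the minus strand, are the REV-ERB pair, which parted in kidney.
Nr1d1: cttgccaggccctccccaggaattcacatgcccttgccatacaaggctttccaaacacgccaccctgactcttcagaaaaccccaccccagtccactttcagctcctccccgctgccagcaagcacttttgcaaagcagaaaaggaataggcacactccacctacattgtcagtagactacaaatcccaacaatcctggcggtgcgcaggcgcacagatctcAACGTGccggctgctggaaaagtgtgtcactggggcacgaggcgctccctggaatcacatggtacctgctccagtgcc
Nr1d2: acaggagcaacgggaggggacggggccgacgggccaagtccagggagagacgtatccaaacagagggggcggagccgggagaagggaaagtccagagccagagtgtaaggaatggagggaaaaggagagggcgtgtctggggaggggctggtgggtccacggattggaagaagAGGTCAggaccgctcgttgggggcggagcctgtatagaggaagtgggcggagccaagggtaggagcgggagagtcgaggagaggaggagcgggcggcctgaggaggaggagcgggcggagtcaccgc
Tef, whose second window lies at chr15:81811164-81811463 on the plus strand, had the highest counts of the 10 genes in all 4 libraries.
Tef window 2: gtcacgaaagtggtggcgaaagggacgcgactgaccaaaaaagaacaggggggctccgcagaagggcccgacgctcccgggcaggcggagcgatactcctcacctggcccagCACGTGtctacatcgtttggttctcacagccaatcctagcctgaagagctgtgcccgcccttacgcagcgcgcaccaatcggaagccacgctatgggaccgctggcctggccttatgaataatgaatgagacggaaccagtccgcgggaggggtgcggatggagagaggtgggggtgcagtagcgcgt

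The Ciart window held 3 E-boxes, at 116, 58 and 44 bases before the start. Of all 32851 RefSeq windows, 7.15% held an E-box and 0.0883% held 3 or more. E-boxes also stood in both Tef windows and in that of Bhlhe41, so that 4 of the 10 windows held one. The variant stood only in the window of Nr1d1, 28 bases before the start, against 4.68% of all windows. AGGTCA stood in the windows of Nfil3 and Nr1d2, at 12 and 77 bases before the start, against 16.3% of all windows. The D-box, searched as TTANGTAA on both strands, was in none of the members' windows and in 2.32% of all. These letters describe the windows alone and do not show that a protein binds there.

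**Figure D1:**
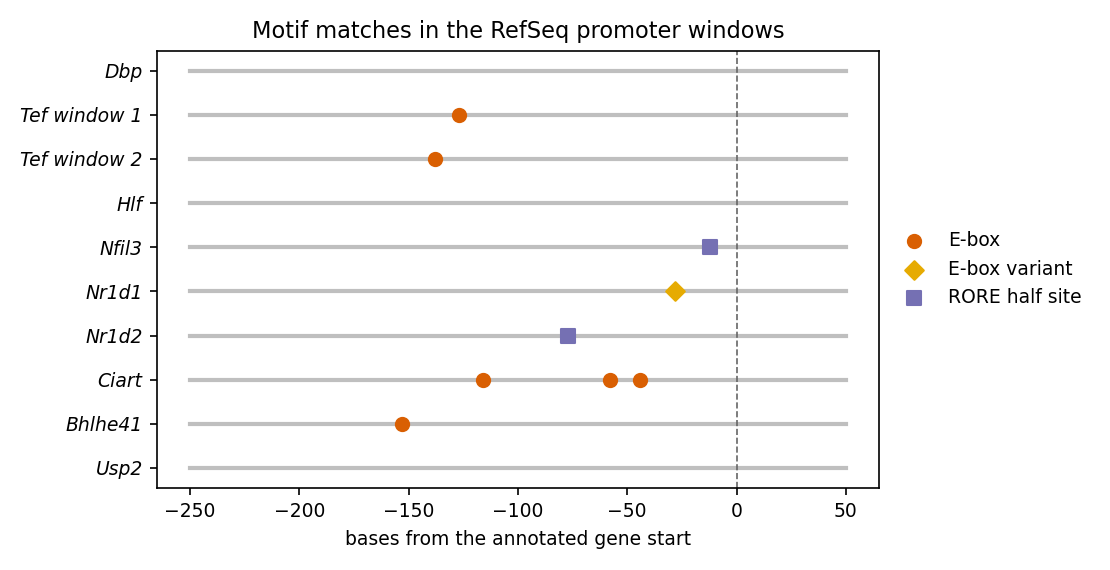
Matches in the promoter windows of 9 of the 10 genes (1 line per window, 2 for Tef), with the distance from the RefSeq start of each window in bases on the x axis. The starts of the Usp2 window and of Tef window 2 lie far inside the gene positions given below. The 3 E-boxes of Ciart lie within 116 bases of its start, and the windows of Dbp, Hlf and Usp2 hold none of the motifs.

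The libraries held between 15883057 and 22927905 reads on genes, and genes of the mitochondrial genome took 14.8% and 24.2% of them in kidney, with CLP and CLP + MLT, and 31.6% and 36.0% in heart. Reads mapped to several places were 23.6% and 32.6% of all in kidney and 38.6% and 37.0% in heart. The part of these shares in the results was not tested beyond the scaling without mitochondrial and haemoglobin genes, under which every call of the 10 genes was the same. Levels are given as CPM, the usual normalised read count for which every library is scaled to the same size, on library sizes corrected by edgeR's TMM method within each tissue, and levels of different genes are compared only after division by exon length in kilobases. The tissue labels were checked against marker genes. In the kidney libraries 11 kidney markers summed to 26860 and 38070 CPM with CLP and CLP + MLT, and 10 cardiomyocyte markers summed to 20.3 and 27.8. In the heart libraries the cardiomyocyte markers summed to 37330 and 25260, where 4 of the 10, Tnni3, Myl2, Myl3 and Tnnc1, were at least 1.5-fold lower with melatonin and 0 were that much higher. Kidney markers were also seen in heart, at 409.0 CPM with CLP and 847.0 with CLP + MLT, and 6 of the 10 past the filter were at least 1.5-fold higher with melatonin. Relative to the kidney libraries their median level in heart was 1.54% and 3.27%. Of all heart genes past the filter, 10.9% were at least 1.5-fold higher with melatonin and 12.6% lower. Neutrophil markers summed to 22.7 and 16.0 in kidney and to 54.3 and 38.9 in heart. Endothelial markers summed to 145.2 and 108.7 in kidney and to 660.7 and 784.0 in heart. The hepatocyte list summed to 1297 and 912.8 in kidney and to 32.1 and 37.9 in heart, and Ahsg, one of its genes, had 0 counts in both kidney libraries. Cyp2e1 made up the most of the kidney sums, at 1040 and 554.4 CPM, while Alb stood at 4.65 and 4.61. Serpina1a went the other way from the sum in kidney, at 84.4 and 190.2. Adipocyte and lymphocyte markers stayed under 3 CPM in every library. Apart from the kidney markers, whose share is set beside the heart values below, the part of these cells in the results was not tested. In whole tissue a change in the number of cells cannot be told apart from a change in mRNA per cell.

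Between the kidney libraries, 4 of the 10 genes were at least 1.5-fold higher with melatonin, namely Ciart, Dbp, Tef and Nr1d2, and 2 were at least 1.5-fold lower, Nfil3 and Nr1d1. Of the 16932 genes past the filter, 11.0% were that much higher and 11.6% that much lower. Between the heart libraries, 5 of the 10 were at least 1.5-fold higher, namely Hlf, Dbp, Ciart, Bhlhe40 and Tef, and 1 was lower, Nfil3. There, 10.9% of 15871 genes were that much higher and 12.6% lower. The median log2 ratio of the 10 genes was 0.23 in kidney and 0.60 in heart, where that of all genes was 0.0029 and 0.0023. Dbp, Tef and Ciart were higher in both tissues, as were 1.92% of the 14592 genes past the filter in both. Nfil3 was lower in both, as were 1.67%. None of the 10 passed 1.5-fold in opposite directions, as 2.95% of genes did. The 10 genes and the gene lists below were chosen with earlier results of these data known. The values of all genes beside them are therefore a description and not a test.

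Stricter limits left fewer genes. At 2-fold, 1 of the 10 was higher and 0 were lower in kidney, where 4.13% and 4.90% of all genes were, and 2 were higher and 0 lower in heart, where 4.60% and 5.22% were. With edgeR's exact test at an assumed coefficient of variation of 0.2 in addition to 1.5-fold, the counts were again 1 and 0 in kidney, against 1.71% and 1.95% of all genes, and 2 and 0 in heart, against 1.84% and 2.33%. At an assumed coefficient of 0.4 none of the 10 passed, against 0.136% of genes higher and 0.396% lower in kidney and 0.265% and 0.132% in heart. With total reads as the scale in place of TMM, 3 were higher and 2 lower in kidney, against 6.79% and 18.7% of genes.

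**Figure D2:**
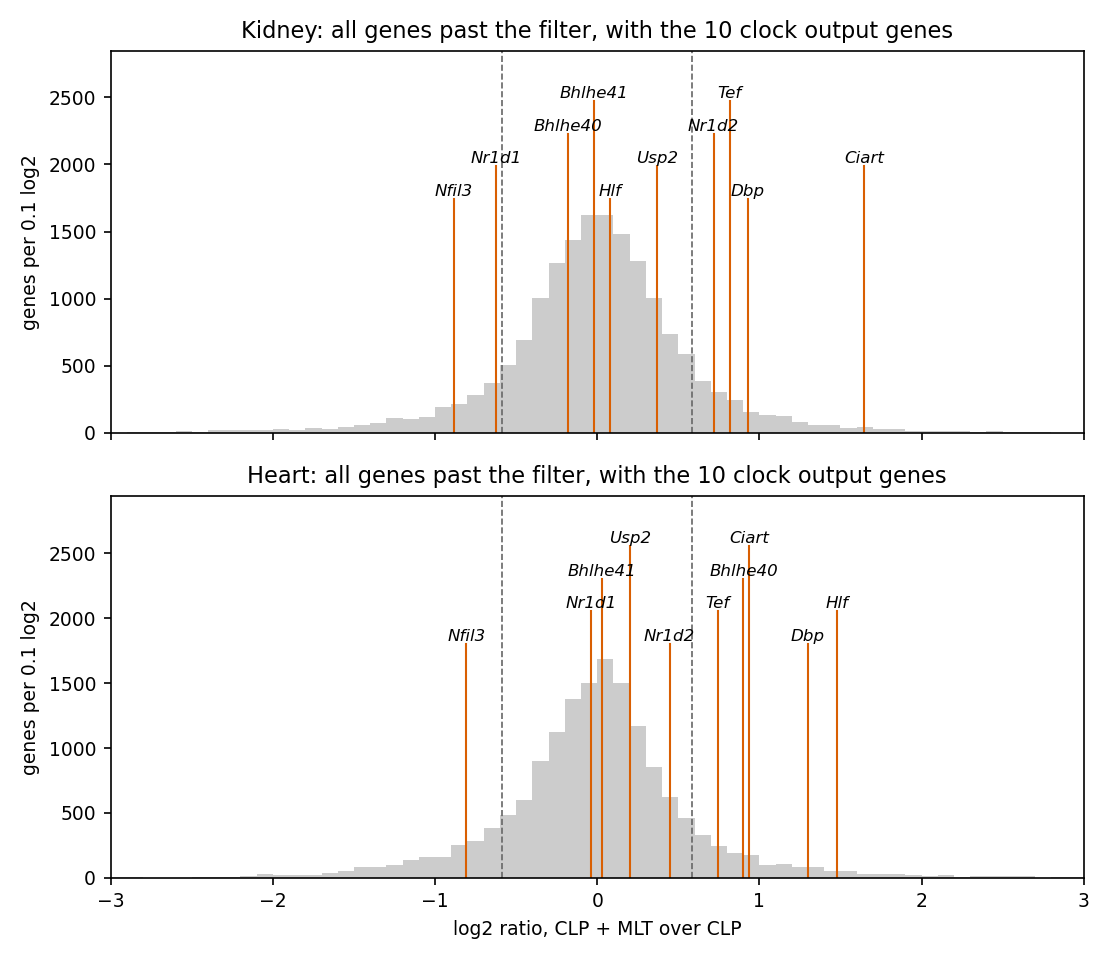
Distribution over all genes of the log2 ratio between the CLP + MLT and the CLP library, for those past the filter in kidney and heart (grey bars, genes per 0.1 log2), with a line for each of the 10 genes and dashed lines at 1.5-fold. Ciart in kidney (1.65) and Hlf in heart (1.48) lie farthest to the right of the 10, and Nfil3 lies farthest to the left of them in both tissues.

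Of the PAR bZIP factors, Dbp and Tef were at least 1.5-fold higher in both tissues and Hlf in heart. Dbp (ENSMUSG00000059824.12, chromosome 7 from 45705088 to 45710203) encodes the factor whose mRNA cycles with the largest amplitude of the family in most organs. In kidney it had 1636 counts with CLP and 1954 with CLP + MLT, or 66.7 and 126.9 CPM. In heart it had 698 and 1704 counts, or 42.8 and 105.2 CPM. The melatonin library was the higher one in each tissue, although the kidney melatonin library was the shallower of its pair. The log2 ratio was 0.93 in kidney (0.83 to 1.02), and 4.75% of genes had a ratio at least as high. It was 1.30 in heart (1.17 to 1.43), where 2.83% did. Both intervals lay wholly above 1.5-fold.

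Tef (ENSMUSG00000022389.15, chromosome 15 from 81802421 to 81826863) encodes the thyrotroph embryonic factor and was the most deeply counted of the 10 genes. It had 7190 and 7952 counts in kidney, or 293.1 and 516.5 CPM, and 5422 and 9014 in heart, or 332.5 and 556.6. Its log2 ratios of 0.82 (0.77 to 0.86) in kidney and 0.74 (0.69 to 0.79) in heart were close to each other, and both intervals lay above 1.5-fold. The melatonin libraries of kidney and heart thus stood at nearly the same level, as did the CLP libraries.

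Hlf (ENSMUSG00000003949.16, chromosome 11 from 90336536 to 90390895), the hepatic leukemia factor, differed from its relatives. In kidney its 1054 and 699 counts came to 43.0 and 45.4 CPM, a log2 ratio of 0.079 (−0.061 to 0.22) whose interval took in 0. In heart it was scarce, with 64 and 178 counts or 3.93 and 11.0 CPM, and its log2 ratio of 1.48 (1.07 to 1.92) was the highest of the 10 genes there. The CLP heart library held the lowest Hlf level of the 4, at 0.0914 of that in the CLP kidney library. Kidney RNA at the marker share given above would amount to 0.661 and 1.49 CPM of Hlf, or 16.9% and 13.5% of its level in the CLP and CLP + MLT heart libraries. With that share, the median over the markers, taken off, the ratio was 1.54. Over the 11 markers the share ran from 0.229% to 15.9% in the CLP heart library. In the CLP + MLT heart library it ran from 0.239% to 17.5%. The highest share with CLP was above the 0.0914 of the kidney level at which Hlf stood there. Shares other than the median were not tested. For the other 9 genes the median share came to at most 5.35% of the heart level.

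Per length, the summed level of Dbp, Tef and Hlf was 66.0 with CLP and 114.8 with CLP + MLT in kidney, and 57.2 and 107.6 in heart, in CPM per kilobase. Tef made up the most of it in every library. Dbp stood at 0.598 of the Tef level in the CLP kidney library and 0.646 in the CLP + MLT kidney library, a change of 0.11 on the log2 scale (0.0060 to 0.22). In heart this ratio went from 0.338 to 0.497, a change of 0.55 (0.42 to 0.69). Dbp therefore differed more than Tef between the heart libraries and nearly alike between the kidney libraries.

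Nfil3 (ENSMUSG00000056749.7, chromosome 13 from 52967209 to 52981073) encodes the repressor of the D-box and is also known as a gene induced by cytokines in immune cells. It had 168 and 57 counts in kidney, or 6.85 and 3.70 CPM, and 289 and 164 in heart, or 17.7 and 10.1. The melatonin library was the lower one in both tissues. The log2 ratio was −0.88 (−1.35 to −0.45) in kidney and −0.81 (−1.09 to −0.53) in heart, with intervals that left out 0 but reached to less than 1.5-fold. The difference between the tissues was 0.077 (−0.44 to 0.59).

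The balance of D-box activators against their repressor, which does not depend on the scaling between libraries, was read as the per-length ratio within a library. Dbp stood at 6.59 times the level of Nfil3 in the CLP kidney library and at 23.2 times in the CLP + MLT kidney library, a log2 change of 1.81 (1.37 to 2.25). In heart the ratio went from 1.63 to 7.03, with an interval of the log2 change from 1.80 to 2.41. Tef over Nfil3 went from 11.0 to 35.9 in kidney and from 4.83 to 14.2 in heart, changes of 1.70 (1.26 to 2.13) and 1.55 (1.27 to 1.83). All 3 activators stood higher against Nfil3 with melatonin in both tissues. Nfil3 itself was lower, at −0.88 in kidney and −0.81 in heart, so a gene with a log2 ratio of 0 would also stand higher against it. Hlf in kidney, with a log2 ratio of 0.079, was close to such a gene. Hlf over Nfil3 showed the widest gap between tissues, with changes of 0.96 (0.51 to 1.41) in kidney and 2.28 (1.79 to 2.78) in heart. In the CLP heart library Hlf was only 0.0672 of the Nfil3 level.

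**Figure D3:**
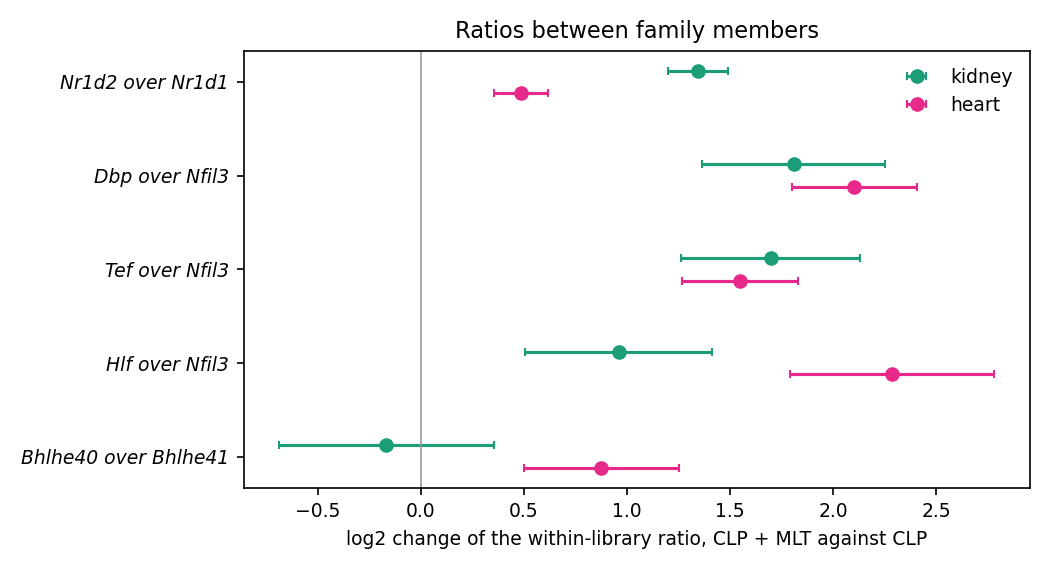
Log2 change, CLP + MLT against CLP, of the per-length ratio between 2 genes of the same library, in kidney and heart. Bars are 95% intervals of counting error. With melatonin the activators stand higher against Nfil3 in both tissues, and Nr1d2 stands higher against Nr1d1, by 1.34 in kidney and 0.49 in heart. Nfil3 itself is lower with melatonin in both tissues, so the values over Nfil3 hold its change as well as that of the activators.

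The REV-ERB genes parted in kidney. Nr1d1 (ENSMUSG00000020889.11, chromosome 11 from 98767932 to 98775333) encodes REV-ERBα, a heme-binding nuclear receptor that represses transcription. It had 1906 counts in the CLP kidney library and 775 in the CLP + MLT kidney library, or 77.7 and 50.3 CPM. In heart it had 1086 and 1049 counts, or 66.6 and 64.8. The CLP kidney library was the highest of the 4 and the CLP + MLT kidney library the lowest. The log2 ratio was −0.63 (−0.75 to −0.51) in kidney, just past 1.5-fold, with an interval that reached to less than 1.5-fold. It was −0.04 (−0.16 to 0.084) in heart, where the interval took in 0. In kidney 10.6% of genes had a ratio at least as low.

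Nr1d2 (ENSMUSG00000021775.11, chromosome 14 from 18204054 to 18239127) encodes REV-ERBβ, the paralog with overlapping targets. It had 2286 and 2361 counts in kidney, or 93.2 and 153.3 CPM, and 5253 and 7108 in heart, or 322.2 and 438.9. The melatonin library was the higher one in both tissues, and both heart libraries stood above both kidney libraries. Its log2 ratio was 0.72 (0.64 to 0.80) in kidney and 0.45 (0.40 to 0.50) in heart, the latter under 1.5-fold. In kidney 7.89% of genes had a ratio at least as high. With total reads as the scale the kidney value was 0.52, also under 1.5-fold, and the median of all kidney genes shifted to −0.19.

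Within a library the order of the pair changed in kidney. Per length, Nr1d2 stood at 0.682 of the Nr1d1 level with CLP and at 1.73 times that level with CLP + MLT, a log2 change of 1.34 (1.20 to 1.49). In heart Nr1d2 was the more abundant one in both libraries, at 2.75 and 3.85 times Nr1d1, a change of 0.49 (0.35 to 0.62). The summed per-length level of the pair was 42.5 and 44.7 in kidney and 81.2 and 102.2 in heart. The sum in kidney thus differed by a factor of 1.05 while the order within it reversed.

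Ciart (ENSMUSG00000038550.10, chromosome 3 from 95878503 to 95882251), also called CHRONO, encodes a repressor of CLOCK and BMAL1. It had 81 and 160 counts in kidney, or 3.30 and 10.4 CPM, and 114 and 217 in heart, or 6.99 and 13.4. The melatonin library was the higher one in both tissues. The log2 ratio of 1.65 (1.26 to 2.06) in kidney was the highest of the 10 genes there, and 1.06% of kidney genes had one at least as high. In heart it was 0.94 (0.61 to 1.28). Both intervals lay above 1.5-fold in spite of the low counts.

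Bhlhe40 and Bhlhe41, which encode the E-box repressors DEC1 and DEC2, differed in their ratios. Bhlhe40 (ENSMUSG00000030103.11, chromosome 6 from 108660629 to 108666925), which hypoxia and cytokines are also known to induce, had 956 and 529 counts in kidney, or 39.0 and 34.4 CPM. In heart it had 259 and 481 counts, or 15.9 and 29.7. The melatonin library was thus slightly lower in kidney and higher in heart. The log2 ratios were −0.18 (−0.34 to −0.027) and 0.90 (0.68 to 1.13). Bhlhe41 (ENSMUSG00000030256.11, chromosome 6 from 145858243 to 145865558) had 84 and 52 counts in kidney, or 3.42 and 3.38 CPM, and 169 and 171 in heart, or 10.4 and 10.6. Its log2 ratios of −0.02 (−0.55 to 0.50) and 0.027 (−0.29 to 0.34) had intervals that took in 0 and lay within 1.5-fold in both directions. Against Bhlhe41, Bhlhe40 went from 2.19 to 4.02 times the per-length level in heart, a log2 change of 0.88 (0.50 to 1.25), and from 16.3 to 14.5 times in kidney, a change of −0.17 (−0.69 to 0.35).

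Usp2 (ENSMUSG00000032010.15, chromosome 9 from 44067021 to 44095627) encodes a protease that removes ubiquitin and acts on clock proteins. It had 2123 and 1722 counts in kidney, or 86.5 and 111.8 CPM, and 971 and 1108 in heart, or 59.6 and 68.4. The melatonin library was the higher one in both tissues, by less than 1.5-fold. The log2 ratios were 0.37 (0.28 to 0.46) and 0.20 (0.075 to 0.33). In heart, 30.1% of genes had a ratio at least as high.

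**Figure D4:**
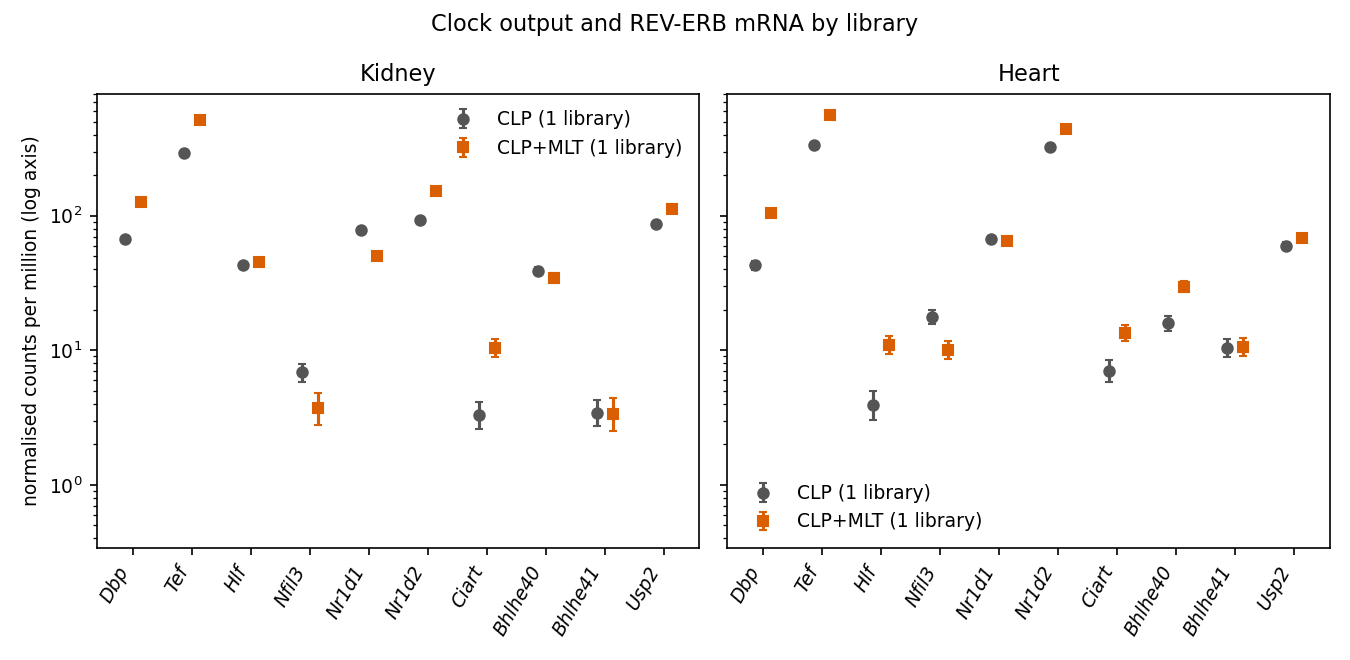
Level of the 10 genes in each of the 4 libraries, in normalised CPM on a log axis, for CLP (circles) and CLP + MLT (squares). Bars are 95% exact Poisson intervals of the counts. Dbp, Tef and Ciart lie higher with melatonin in both tissues, Nfil3 lies lower in both, and Nr1d1 lies lower in kidney and nearly level in heart.

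The ratios of the 2 tissues were compared gene by gene. The interval of the heart minus the kidney log2 ratio left out 0 for 8 of the 10 genes, in counting error alone. The count was 6 under upper quartile scaling and 5 with total reads as the scale. Heart had the higher ratio for Hlf, by 1.40 (0.97 to 1.83), for Bhlhe40, by 1.08 (0.82 to 1.35), for Nr1d1, by 0.59 (0.41 to 0.76), and for Dbp, by 0.37 (0.21 to 0.53). These 4 differences kept their sign under every scaling tried. Kidney had the higher ratio for Ciart, with a heart minus kidney value of −0.71 (−1.22 to −0.21), for Nr1d2, with −0.27 (−0.37 to −0.18), for Usp2, with −0.17 (−0.32 to −0.015), and for Tef, with −0.074 (−0.14 to −0.0070). These 4 depend on the scaling. Under the upper quartile the intervals of Tef and Usp2 took in 0. With total reads as the scale, Tef stood at 0.18 and Usp2 at 0.081, with the other sign, and the intervals of Nr1d2 and Ciart took in 0.

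**Figure D5:**
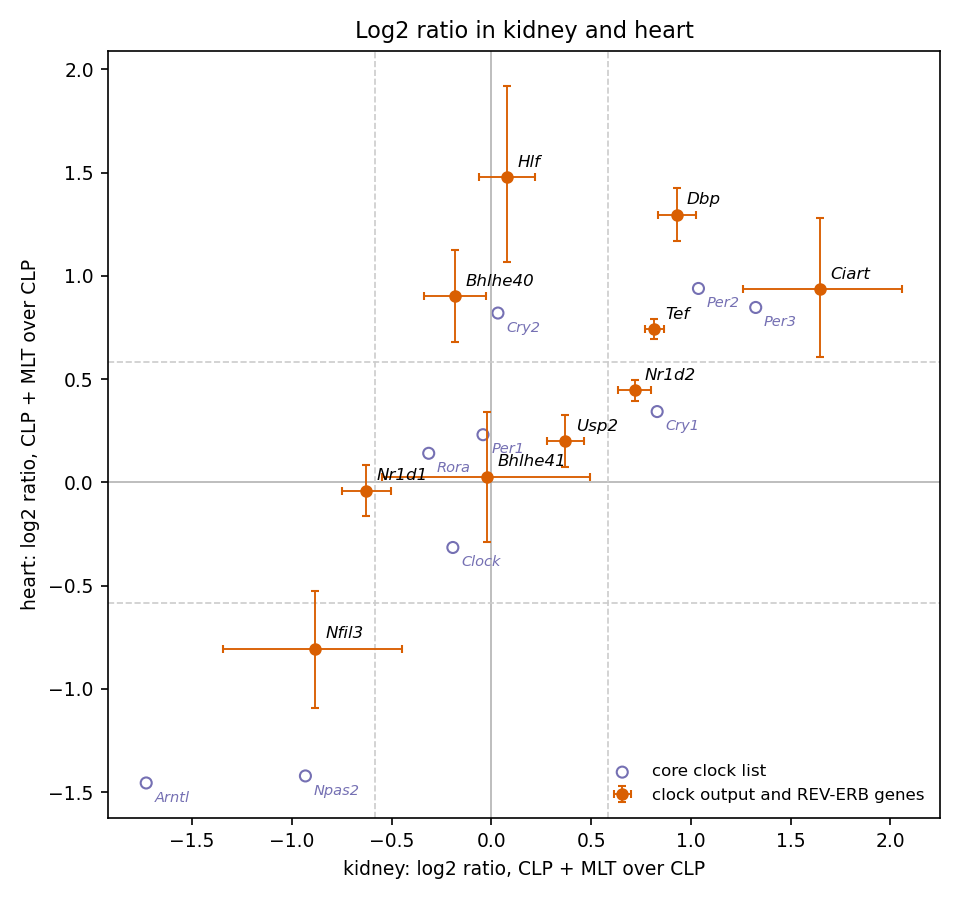
Log2 ratio between the CLP + MLT and the CLP library in kidney (x axis) and heart (y axis) for the 10 genes, with 95% intervals of counting error, and for the core clock list (open circles, without intervals). Dashed lines mark 1.5-fold. Dbp, Tef and Ciart lie at the upper right with Per2 and Per3, Nfil3 lies at the lower left with Arntl and Npas2, and Hlf and Bhlhe40 lie high in heart alone.

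Levels also differed between the organs. With CLP, Nr1d2 in heart was at 3.46 times its kidney level, Bhlhe41 at 3.03 times, Nfil3 at 2.59 times and Ciart at 2.12 times, whereas Hlf was at 0.0914, Bhlhe40 at 0.408 and Dbp at 0.642. Tef was nearly level, at 1.14. These ratios set libraries side by side that were scaled within each tissue. In the CLP kidney library the per-length order ran from Tef at 37.3 CPM per kilobase, through Nr1d1 at 25.3, Dbp at 22.3, Usp2 at 18.0 and Nr1d2 at 17.2, to Bhlhe41 at 0.510. In the CLP + MLT kidney library Tef at 65.7 was followed by Dbp at 42.4, Nr1d2 at 28.4, Usp2 at 23.2 and Nr1d1 at 16.4. In the CLP heart library Nr1d2 led with 59.6, ahead of Tef at 42.3 and Nr1d1 at 21.7, and Hlf was last at 0.588. In the CLP + MLT heart library Nr1d2 at 81.2 and Tef at 70.8 still led, and Dbp followed at 35.2. Among all genes past the filter in the CLP kidney library, 7.50% had a per-length level at least as high as Tef and 87.5% one at least as high as Bhlhe41.

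The core clock genes around these outputs were counted from a list of 10, of which 9 passed the filter in each tissue. In kidney 3 were at least 1.5-fold higher with melatonin and 2 lower, beside 11.0% and 11.6% of all genes, with a median log2 ratio of −0.042. In heart 3 were higher and 2 lower, beside 10.9% and 12.6% of all genes, with a median of 0.23. Lower in both were Arntl, which encodes BMAL1, with 123 and 23 counts in kidney and 357 and 129 in heart, and Npas2, which encodes a partner of BMAL1, with 34 and 11 counts in kidney and 141 and 52 in heart. The log2 ratios of Arntl were −1.73 (−2.46 to −1.10) and −1.46 (−1.76 to −1.16). Those of Npas2 were −0.93 (−2.09 to 0.059) and −1.42 (−1.92 to −0.96), so the kidney interval of Npas2 took in 0. Higher in both were Per2 (1.04 and 0.94) and Per3 (1.33 and 0.85), the period genes whose products repress CLOCK and BMAL1. Cry1, which encodes a cryptochrome repressor, stood at 0.83 in kidney and 0.34 in heart. Cry2 stood at 0.033 and 0.82. Per1, Clock and Rora were under 1.5-fold in both tissues, between −0.32 and 0.23.

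Set against Arntl within each library, Dbp went from 33.4 to 214.0 times its per-length level in kidney and from 4.91 to 33.2 times in heart. The log2 changes were 2.65 (2.01 to 3.29) and 2.75 (2.44 to 3.07). For Nr1d1 over Arntl they were 1.10 (0.45 to 1.74) and 1.42 (1.10 to 1.73), and for Nr1d2 over Arntl 2.44 (1.80 to 3.08) and 1.90 (1.61 to 2.20). All 3 outputs thus stood higher relative to Arntl with melatonin, but Arntl itself was lower, at −1.73 in kidney and −1.46 in heart. A gene with a log2 ratio of 0 would rise against Arntl by as much as Arntl fell. Nr1d1 rose by less than that in both tissues, and Dbp and Nr1d2 by more. The 12 genes listed on the side of the E-box and D-box had medians of 0.54 in kidney and 0.80 in heart. As 9 of them are members, these medians largely restate the values above. The 5 genes listed on the side of the RORE, Nfil3 among them, had medians of −0.88 and −0.81. Nfil3 was the middle gene of the 5 in both tissues, so these medians are its own values. Among the 5, Cry1 went the other way, at 0.83 and 0.34. The medians of all genes were 0.0029 and 0.0023.

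Genes outside the loop that are known to follow the clock in peripheral organs were counted from a list of their own. Of 19 listed, 18 passed the filter in kidney. There, 0 were at least 1.5-fold higher and 5 were lower, beside 11.0% and 11.6% of all genes, with a median of −0.25. In heart 17 passed, 2 were higher and 3 lower, beside 10.9% and 12.6% of all genes, with a median of −0.17. Cdkn1a, which encodes the cell cycle inhibitor p21, was lower in both tissues (−1.71 in kidney and −1.99 in heart), as was Pdk4, a kinase that shuts off pyruvate oxidation (−1.71 and −0.78), and Fkbp5, a glucocorticoid target (−0.80 and −1.53). Kcnip2, which encodes a subunit of a cardiac potassium channel, had 1790 and 4095 counts in heart, a log2 ratio of 1.20 (1.12 to 1.29), and stood at −0.39 in kidney. Alas1, the rate-limiting enzyme of heme synthesis, and Sgk1, a kinase that mineralocorticoids and glucocorticoids induce, were lower in kidney (−0.74 and −0.67). In heart they stood at 0.38 and 0.074.

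Hormones and cytokines are known inputs to Nfil3, Bhlhe40 and Per1, so 14 genes of glucocorticoid and inflammatory signalling were set beside them. Fkbp5, Tsc22d3 and Sgk1 are also in the list just above, and Per1 is also in the core clock list. Fkbp5 and Sgk1 are thus counted as lower in kidney in both lists. In kidney 12 of the 14 passed the filter. Of these, 0 were at least 1.5-fold higher and 6 were lower, beside 11.0% and 11.6% of all genes, with a median of −0.60. In heart 13 passed, 1 was higher and 2 were lower, beside 10.9% and 12.6% of all genes, with a median of −0.13. Zbtb16, a glucocorticoid target, was lower in both tissues (−1.94 and −0.98). Klf9 (−0.84), Socs3 (−1.21) and Cxcl1 (−1.55) were lower in kidney, and stood between −0.13 and 0.048 in heart. Tnf was higher in heart, with 15 and 44 counts and a log2 ratio of 1.53 (0.69 to 2.51). The part of these inputs in the values of the 10 genes was not tested.

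By the distance between the pair of log2 ratios, the 5 genes most like Dbp among 9387 with a mean of at least 100 counts in both tissues were Slc22a18 (0.945 in kidney and 1.38 in heart), mt-Atp8, Mfsd4b5, Slc22a8 and Nlrp6, at distances of 0.0823 to 0.232. Of these Slc22a8, which encodes a renal transporter of organic anions, had 3423 and 3555 counts in kidney and 68 and 158 in heart. All but mt-Atp8 had at most 242 counts in each heart library. The median kidney marker stood at 1.54% of its kidney level in the CLP heart library and at 3.27% in the CLP + MLT heart library. The part of such a share in the heart ratios of these genes was not tested. The 5 most like Nr1d1 were Podxl, Ralb, Kazn, Mettl1 and Ly6c1, at distances of 0.00767 to 0.0276. Podxl, a gene of podocytes and endothelium, stood at −0.62 in kidney and −0.033 in heart. Likeness over 4 libraries is a description of these values only.

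Some exon bases of the 10 genes are shared with genes on the opposite strand, and the strand setting of the counting is not given. Of the reads counted either on a gene or on no feature, 52.2% and 52.3% were on no feature in kidney, with CLP and CLP + MLT. In heart they were 52.1% and 52.6%. The bearing of these shares on the strand setting was not tested. Dbp shares 539 exon bases, 18.0% of its length, with Sphk2, which had log2 ratios of 0.77 in kidney and 0.69 in heart, in the direction of Dbp. Nr1d1 shares 263 bases, 8.55%, with Thra, a thyroid hormone receptor gene with ratios of −0.06 and −0.047. Bhlhe41 shares 19.1% with Gm43909, which had at most 22 counts in a library. The shared parts of Tef, Bhlhe40 and Usp2 were under 5% of their exon bases, Ciart shares none with the gene it overlaps, and Hlf, Nfil3 and Nr1d2 overlapped no gene. How far reads from these partners enter the counts of Dbp and Nr1d1 was not tested.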

How the data were processed

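RNA-seq of 4 mouse libraries was analysed. Per the submitters' processing notes and the study's methods, the authors trimmed reads with trim-galore, aligned them to mm10 with HISAT2 2.1.0 and counted them with HTSeq, for which no version, strand setting or annotation was found. The deposited values are raw counts of reads per gene. The 5 closing rows that name no gene, 65.5% to 72.8% of each file, were left out. Symbols were matched for 55141 of 55401 identifiers; positions and exon lengths came from GENCODE M21 on GRCm38, which is mm10.

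TMM factors were computed within each tissue over genes whose mean reached 10 counts (edgeR 4.0.16, R 4.3.3; DESeq2 1.42.0 size factors as an alternative). Log2 ratios used a prior count of 0.5. Python 3.11.15, numpy 2.4.6, pandas 2.3.3, scipy 1.17.1 and matplotlib 3.10.9 did the rest. The study used edgeR with 1.5-fold and a p-value threshold; since each group had 1 library and so no dispersion, a gene was called by 1.5-fold alone and no p-value is given. Intervals of ratios are 95% exact Clopper-Pearson intervals; those of differences between tissues or genes are normal approximations. PCR copies are not independent molecules, so intervals cover counting error only. Ratios and their intervals were tried on simulated counts that held counting error alone, so this says nothing on the spread between mice. The 10 genes and the lists, written from general knowledge, were chosen with earlier results of these data known. Named were all 10 genes, the core clock genes past the filter, at most 6 genes of each other list past 1.5-fold by size of ratio, and the 5 genes nearest to Dbp and Nr1d1. Overlapping genes and marker lists were added as checks. Alternatives covered scaling, filter, prior count and call rule, and 1 was chosen after seeing the data. Proteins were not analysed here, and 2 genes of the lists are not reported here and were left out of the lists' counts and medians.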

Additional observations from a re-analysis of the deposited data

Results flagged for a closer look

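Bhlhe40 drew attention because its log2 ratio lay below 0 in kidney and above 0 in heart, each with a counting interval that left out 0. The heart minus the kidney value was 1.08 (0.82 to 1.35). The kidney ratio of −0.18 was under 1.5-fold, and the difference was not tested across mice, since each group had 1 library.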

How the results depend on the processing

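No paired analysis was possible because each group had 1 library. Leaving out a replicate was not possible for the same reason. Scaling by library size only lowered the median of the 10 genes in kidney from 0.23 to 0.03, beside a shift of all kidney genes to −0.19, left 3 genes higher and 2 lower there, and left 5 of 8 genes whose tissue difference lay beyond counting error, with Tef among the 5 but of opposite sign. The upper quartile left 6 of the 8, without Tef and Usp2. With scaling by library size only, 6.79% of all kidney genes were at least 1.5-fold higher and 18.7% lower. A 2-fold limit left 1 gene higher and 0 lower in kidney and 2 higher and 0 lower in heart. The same counts, 1 and 0 in kidney and 2 and 0 in heart, were left by edgeR's exact test at an assumed coefficient of variation of 0.2, which kept Ciart in kidney and Dbp and Hlf in heart. At an assumed coefficient of 0.4, 0 genes passed in either direction in either tissue. These assumed variations are not measured, and counting depth limits Ciart, Nfil3, Bhlhe41 and heart Hlf most. With DESeq2 size factors, the upper quartile, other filters, a prior count of 5 or without mitochondrial and haemoglobin genes, all 20 ratios moved by less than their counting intervals. Taking off the median kidney marker share, chosen after seeing the data, did not change the calls in heart.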
